A study of Homo sapiens with 6 samples.

Results

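The insulin-like growth factor (IGF) system was examined in COV434 cells through 10 of its genes, taken from the 16798 genes of the expression table by their symbols. They comprise the ligands IGF1 and IGF2, the receptors IGF1R and IGF2R, and the binding proteins IGFBP2, IGFBP3, IGFBP4, IGFBP5, IGFBP6 and IGFBP7. Every one of the 10 genes had a row in the table and passed the filter on low counts.

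IGF1 and IGF2 are secreted peptides related to insulin, and both signal for growth and survival through the tyrosine kinase receptor encoded by IGF1R. IGF2R, the cation-independent mannose 6-phosphate receptor, takes up IGF2 for breakdown in lysosomes and carries lysosomal enzymes, and it has no kinase domain. The IGFBPs hold IGFs in the extracellular fluid and control how much ligand reaches the receptors, and in the ovary IGFs act together with follicle-stimulating hormone on granulosa cells (GCs).

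RNA was sequenced from 3 control samples and 3 samples treated with 4-hydroxycyclophosphamide (4HC, the active metabolite of cyclophosphamide, CTX) at 15 µM for 24 h. All samples came from COV434, an immortalized human line that the labels call granulosa cells of wild-type genotype, grown in medium with fetal bovine serum, which itself contains IGFs. The design compared COV434 cells exposed to the CTX metabolite with control cells, and no vehicle was named for the control. No source used here says whether the samples of a group came from separate cultures, so p-values measure the spread between these samples, which may be technical.

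The total count was between 16133786 and 16702316 per sample, and of the 16798 genes 12368 passed the filter. Replicates of a group differed by more than sampling noise in every pair. Of 17 granulosa markers, 15 were in the table and 5 reached a mean of 1 CPM (counts per 1000000, scaled by TMM) in control. These 5 were AMH, NR5A2, WT1, HSD17B1 and KITLG. FOXL2 had 0 counts in every control sample, and the mean of FSHR was 0.0205 CPM in control. The means of CYP19A1, NR5A1, GATA4 and STAR were at most 0.082 CPM in control. Most of the listed markers were thus too low to bear out the label of granulosa cells. The summed level of the granulosa markers was 737.4 to 773.1 CPM in control and 591.0 to 618.6 CPM in 4HC. Most of this sum came from NR5A2, WT1 and KITLG, at means of 388.3, 217.6 and 126.8 CPM in control. Of the 6 markers that were tested, these 3 were called lower and 0 higher in 4HC, beside 17.1% of all tested genes called lower. Stromal markers summed to between 389.0 and 411.3 CPM in control and between 388.4 and 394.8 CPM in 4HC, with 4 of 6 markers detected. Epithelial markers reached a sum of at most 8.12 CPM and leukocyte markers of at most 4.83 CPM in any sample. The part of these markers in the results on the IGF genes was not tested, and in RNA from whole cultures fewer cells of a type and less RNA per cell cannot be told apart.

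At baseline, COV434 cells expressed the IGF system unevenly. Levels between genes were compared in transcripts per 1000000 transcripts (TPM), which accounts for transcript length. IGFBP7, a secreted protein of the IGFBP superfamily with low affinity for IGFs, stood at 808.4 ± 17.7 TPM (SD, n = 3) in control and ranked 147 of all 16798 genes. IGFBP2 followed at 22.7 ± 0.660 TPM and IGF2R at 15.1 ± 0.325 TPM. IGFBP4 at 2.02 ± 0.714 TPM, IGFBP6 at 1.89 ± 0.280 TPM and IGF2 at 1.71 ± 0.162 TPM came next. IGFBP5 at 0.787 ± 0.176 TPM, IGFBP3 at 0.533 ± 0.140 TPM, IGF1R at 0.273 ± 0.0252 TPM and IGF1 at 0.193 ± 0.108 TPM closed the order. Neighbours whose control samples overlapped were IGFBP4 and IGFBP6, IGFBP6 and IGF2, IGFBP5 and IGFBP3, and IGF1R and IGF1. All other neighbours in the order were separate. IGFBP5 was nonetheless above IGFBP3 within each control sample, at 0.68, 0.69 and 0.99 TPM against 0.42, 0.49 and 0.69 TPM. In the remaining overlapping pairs the order changed between control samples.

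**Figure D1:**
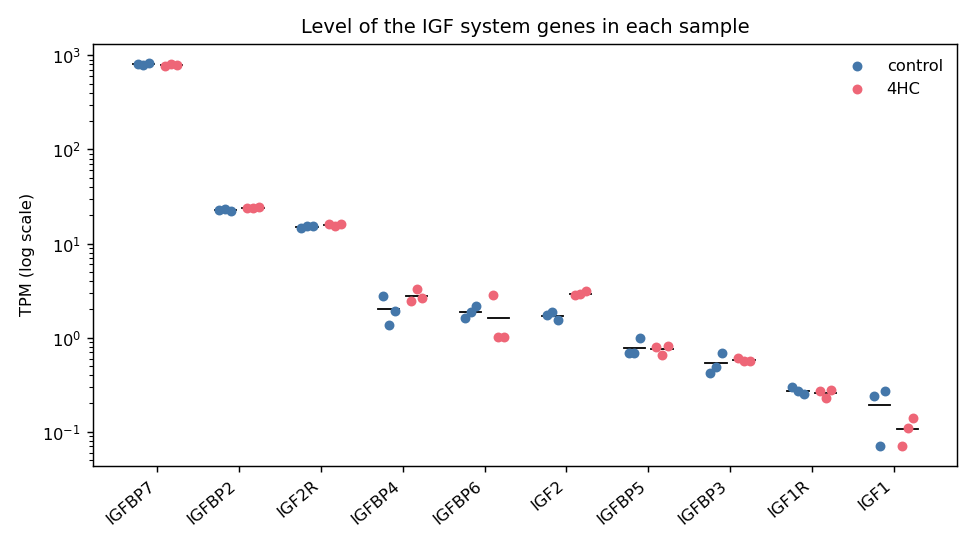
TPM on a log scale of the 10 IGF system genes in each of the 3 control (blue) and 3 4HC (red) samples, with a line at each group mean. IGFBP7 lies near 808.4 TPM, far above all others, and the 3 IGF2 points of 4HC lie above the 3 of control.

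IGFBP7 alone held 94.7% ± 0.112 of the summed TPM of the 10 genes in control (SD, n = 3) and 94.2% ± 0.238 in 4HC. The TPM of IGF2R was 49.1, 56.5 and 61.3 times that of IGF1R in control 1, 2 and 3, and 60.3, 66.8 and 57.2 times in 4HC 1, 2 and 3. In TPM the ranges of this receptor ratio overlapped between the groups. The divisor rested on 17 to 29 IGF1R counts per sample, so the ratios are imprecise. The overlap may also depend on the unit. In CPM, every 4HC sample was above every control sample for IGF2R, while IGF1R averaged 1.65 in control and 1.32 in 4HC. IGF1R was at a higher TPM than only 25.0% of the genes in the table.

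The sequences before the start sites of the receptors are shown because their transcripts differed so widely in level. RefSeq promoter windows (build GRCh38.p14) matched 8 of the 10 genes, in 11 windows; IGF2 and IGFBP7 were not matched. For each, the 250 bases before the start site are considered, and capitals mark the GC box, GGGCGG or its reverse complement CCGCCC, a motif bound by SP1.
IGF1R (chr15:98648289-98648538, plus strand): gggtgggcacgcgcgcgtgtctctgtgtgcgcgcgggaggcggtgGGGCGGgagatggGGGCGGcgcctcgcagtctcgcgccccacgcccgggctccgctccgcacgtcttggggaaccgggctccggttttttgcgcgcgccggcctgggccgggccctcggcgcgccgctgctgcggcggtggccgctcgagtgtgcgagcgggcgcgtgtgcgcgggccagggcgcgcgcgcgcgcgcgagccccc
IGF2R (chr6:159968832-159969081, plus strand): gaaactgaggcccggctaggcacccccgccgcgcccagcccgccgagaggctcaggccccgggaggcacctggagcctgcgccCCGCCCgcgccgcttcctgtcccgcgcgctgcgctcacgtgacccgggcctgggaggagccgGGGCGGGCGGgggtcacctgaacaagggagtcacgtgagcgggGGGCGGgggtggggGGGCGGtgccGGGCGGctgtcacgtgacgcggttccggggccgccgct
The IGF1R window held 81.2% G and C with 2 GC boxes, and the IGF2R window held 79.2% with 6 matches, of which those in the stretch GGGCGGGCGG overlap. The median over all promoters was 58.0%, and 42.6% of 35116 promoters of the same length held a GC box on either strand. Both receptor genes thus had GC-rich windows. Whether the windows bear on the levels of 15.1 TPM for IGF2R and 0.273 TPM for IGF1R was not tested. In all, 7 of the 11 windows held a GC box, the count to set beside that 42.6%. By gene, 6 of the 8 matched genes had a GC box in at least 1 window. A TATA box, TATAAA on either strand, was in 1 of the 11 windows, that of IGFBP4, and in 10.7% of all promoters.

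Under 4HC, IGF2 rose 1.69-fold. The other 9 genes, among them the abundant IGFBP7, IGFBP2 and IGF2R, did not pass the test, which does not show that they were unchanged. With edgeR's quasi-likelihood test and a Benjamini-Hochberg adjusted p under 0.05, 1 of the 10 genes was higher and 0 were lower in 4HC, whereas 19.2% of all tested genes were higher and 17.1% were lower. At an unadjusted p under 0.05 there were 3 of the 10 genes, IGF2, IGF2R and IGFBP4, all with positive log2 fold changes, against 44.5% of all tested genes in either direction and 23.2% with positive ones. DESeq2 also called 1 higher and 0 lower. None of the 10 genes reached a 2-fold change, a size that with an unadjusted p under 0.05 was met by 1.15% of tested genes. Over the 10 genes the log2 fold changes had a median of 0.04, and over all tested genes of 0.0047, and the median absolute value was 0.17 against 0.13.

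**Figure D2:**
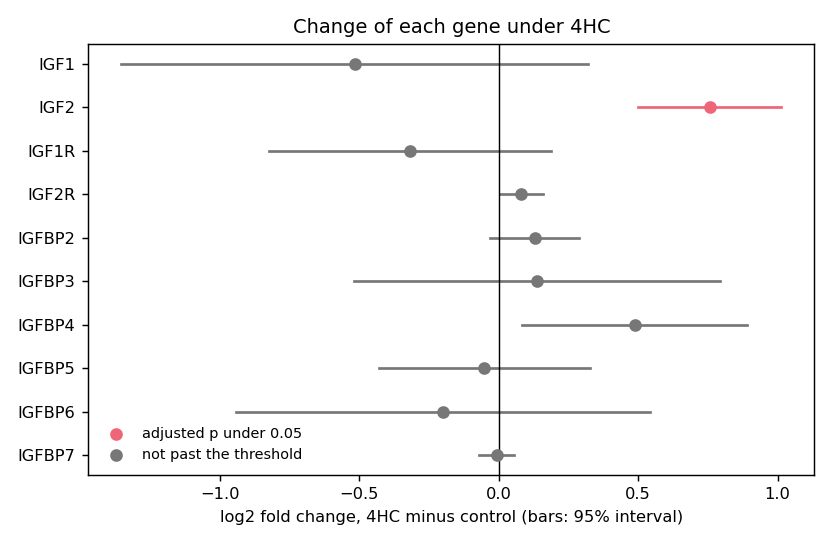
Log2 fold change of each gene in 4HC relative to control, with bars for the 95% interval of edgeR's quasi-likelihood fit. IGF2 (red), at 0.76, is the gene whose adjusted p was under 0.05, and the intervals of IGF1, IGFBP6 and IGFBP3 are the widest.

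IGF2 (NCBI Gene 3481, chr11:2129117-2149793 in the GRCh38 coordinates of the files) encodes the ligand that binds IGF1R, the insulin receptor and IGF2R. Its counts were 79, 83 and 73 in control 1, 2 and 3 and 128, 130 and 140 in 4HC 1, 2 and 3. Every 4HC sample was above every control sample, and the gap between the groups was wider than the spread within either. The level was 4.79 ± 0.358 CPM in control and 8.10 ± 0.429 CPM in 4HC (SD, n = 3 each). The log2 fold change was 0.76 (SE 0.128), a 1.69-fold rise with a 95% interval of 1.42 to 2.02 (adjusted p = 3.56e-06, edgeR's quasi-likelihood test). Of the 12368 tested genes, 248 had a larger positive log2 fold change, which is 2.01%. IGF2 overlaps INS-IGF2, IGF2-AS and MIR483 in the RefSeq annotation, and none of these was in the table. Whether counting used the strand is not given in the sources used here, so reads of IGF2 and of its antisense gene cannot be told apart.

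IGF1 (chr12:102395860-102481839), the ligand of growth hormone action, was near the limit of detection. Its counts were 16, 5 and 12 in control and 5, 8 and 10 in 4HC. The groups overlapped, with both the highest and a tied lowest value in control. The log2 fold change was -0.52 (SE 0.417, 95% interval -1.35 to 0.32, adjusted p = 0.352, edgeR's quasi-likelihood test), an interval that holds 0 and also a fall as large as the rise of IGF2. The summed TPM of both ligands was 1.91 ± 0.0874 in control and 3.05 ± 0.184 in 4HC (SD, n = 3).

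Of the receptors, IGF2R (chr6:159969082-160111504) had 2102, 2201 and 2223 counts in control and 2369, 2222 and 2319 in 4HC. In CPM the samples of the groups did not overlap, and the means were 133.0 ± 3.10 CPM in control and 140.7 ± 3.18 CPM in 4HC. Its log2 fold change of 0.08 (SE 0.038, 95% interval 0.0031 to 0.16) missed the threshold (unadjusted p = 0.0418, adjusted p = 0.0976, edgeR's quasi-likelihood test). This was the second most deeply counted gene of the system, and the interval limits any change to a small one.

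IGF1R (chr15:98648535-98964530), the signalling receptor, had 24, 29 and 28 counts in control and 25, 17 and 23 in 4HC. The groups overlapped, and 4HC 2 was the lowest of the 6 samples. The means were 1.65 CPM in control and 1.32 CPM in 4HC, giving a log2 fold change of -0.32 (SE 0.251, 95% interval -0.82 to 0.19, adjusted p = 0.339, edgeR's quasi-likelihood test). In limma on log2(TPM + 0.1) the log2 fold change of IGF1R was -0.05 (adjusted p = 0.89), so counts and TPM differed on its size.

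Among the binding proteins, IGFBP4 had the largest positive fold change without passing the test. IGFBP4 (chr17:40442588-40457725), which mostly inhibits IGF action until the protease PAPPA cleaves it, had 55, 27 and 39 counts in control and 50, 67 and 53 in 4HC. Control 1 lay within the range of the 4HC samples, and the other control samples lay below all of them. The log2 fold change was 0.49 (SE 0.200, 95% interval 0.085 to 0.89), with an unadjusted p of 0.0186 and an adjusted p of 0.0509 (edgeR's quasi-likelihood test). Both the processing and single libraries decided whether IGFBP4 was called. Without a filter its adjusted p was 0.0398 (edgeR's quasi-likelihood test), and in DESeq2 it was 0.215. The log2 fold change was 0.78 without control 1, 0.57 without 4HC 1 and 0.53 without 4HC 3, each called (adjusted p = 0.00551, 0.0428 and 0.0468), and 0.27 without control 2, 0.45 without control 3 and 0.34 without 4HC 2, none called (adjusted p = 0.343, 0.135 and 0.273, edgeR's quasi-likelihood test).

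IGFBP2 (chr2:216632828-216664436), which binds IGF2 with preference over IGF1, had 265, 275 and 243 counts in control and 286, 285 and 287 in 4HC. The groups did not overlap, and the 4HC samples lay very close together. The means were 15.97 CPM in control and 17.47 CPM in 4HC, with a log2 fold change of 0.13 (SE 0.079, 95% interval -0.03 to 0.29, adjusted p = 0.206, edgeR's quasi-likelihood test). IGF2, IGF2R and IGFBP2 were the 3 genes of the system whose groups did not overlap in CPM, all higher in 4HC, against 45.3% of tested genes with no overlap in either direction and 23.4% higher.

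IGFBP7 (chr4:57030773-57110385) had 8531, 8387 and 8748 counts in control and 8445, 8708 and 8427 in 4HC. The ranges overlapped almost completely. The level was 523.2 ± 6.20 CPM in control and 520.8 ± 14.3 CPM in 4HC, and the log2 fold change was -0.0067 with a 95% interval of -0.07 to 0.056 (adjusted p = 0.892, edgeR's quasi-likelihood test), the narrowest interval of the 10 genes. IGFBP7 overlaps POLR2B, which is in the table, and the antisense gene IGFBP7-AS1, which is not.

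IGFBP5 (chr2:216672105-216695552), the neighbour of IGFBP2 on chromosome 2 and the most conserved IGFBP, had 42, 43 and 62 counts in control and 50, 41 and 51 in 4HC. IGFBP3 (chr7:45912245-45921272), the main carrier of IGFs in serum, had 10, 12 and 17 counts in control and 15, 14 and 14 in 4HC. IGFBP6 (chr12:53097667-53102340), which binds IGF2 with strong preference over IGF1, had 11, 13 and 15 counts in control and 20, 7 and 7 in 4HC. In all of these the groups overlapped, and for IGFBP6 the highest and the lowest values were both in 4HC. The log2 fold changes were -0.05 (95% interval -0.43 to 0.33) for IGFBP5, 0.14 (95% interval -0.52 to 0.79) for IGFBP3 and -0.20 (95% interval -0.94 to 0.54) for IGFBP6, with adjusted p = 0.862, 0.779 and 0.712 in edgeR's quasi-likelihood test. A rise of the size of that of IGF2 lay inside the interval of IGFBP3 and above those of IGFBP5 and IGFBP6.

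The transcript table gave counts to 26 transcripts of the 10 genes, of which 11 passed the filter. None was called by edgeR's quasi-likelihood test or by DESeq2, and 1 had an unadjusted p under 0.05 in edgeR, the single counted transcript of IGF2R. Among all 42216 tested transcripts 0.706% were higher and 0.587% were lower. IGF2R, IGFBP3, IGFBP4, IGFBP5 and IGFBP6 each had 1 transcript with counts.

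The reads of IGF2 were assigned to different transcripts in different samples. NM_001291862 had 64.2, 78.1 and 0 counts in control and 0, 0 and 23.2 in 4HC. NM_001291861 had 0, 0 and 38.4 counts in control and 119, 121 and 108 in 4HC. Control 1 and 2 were thus assigned mainly to NM_001291862, while control 3 had none of it and all 4HC samples were assigned mainly to NM_001291861. NM_000612 had between 4.94 and 18.1 counts in every sample, and NM_001127598 had counts in control 3 alone. Assignment also shifted between samples for IGF1, IGF1R and IGFBP2. NM_000618 of IGF1 held all 10 counts of 4HC 3, and NM_001291858 of IGF1R had 0 counts in 4HC 2. NM_001313990 of IGFBP2 had 37.4 counts in control 3 and none in any other sample.

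NM_001291861 made up 17.5% ± 30.3 of the counts of IGF2 in control and 87.8% ± 8.95 in 4HC (SD, n = 3), and NM_001291862 made up 58.4% ± 51.0 and 5.52% ± 9.56. Neither was called, with log2 fold changes of 3.20 (SE 1.73, adjusted p = 0.670) and -2.61 (adjusted p = 0.907) in edgeR's quasi-likelihood test. In the GENCODE models (GRCh38) the gene lies on the minus strand of chromosome 11, and the start sites are at 2137290 for NM_001291861, 2139389 for NM_000612, 2141016 for NM_001291862 and 2141238 for NM_001127598. The first 3 of these share 1 coding sequence of 540 bases without the stop codon, and that of NM_001127598 has 708 bases. NM_001291861 has 103 bases that lie in no other of these models, and NM_001291862, with 1023 bases in all, has 0. The reads may have been assigned to other models than these, since IGF2 extends to 2149793 in the coordinates of the files. The assignment of IGF2 reads changed between control samples, so it is less certain than the count of the whole gene. That count rose in the sum over all transcripts.

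**Figure D3:**
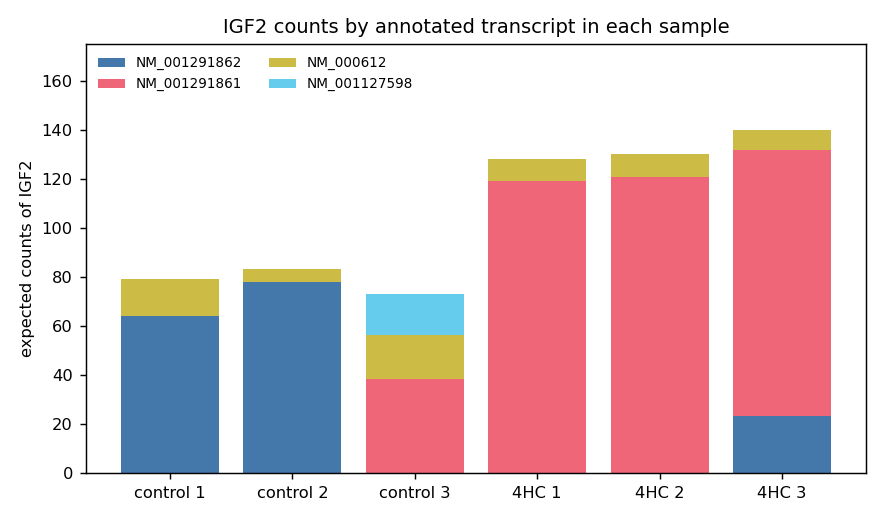
Expected counts of IGF2 in each sample, stacked by annotated transcript. The 4HC bars reach 128 to 140 counts against 73 to 83 in control, and NM_001291861 (red) fills most of each 4HC bar and part of control 3.

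IGFBP7 was split in steady proportions. NM_001553 held 76.8% ± 0.941 of its counts in control and 78.1% ± 1.08 in 4HC, and NM_001253835 held 23.2% ± 0.941 and 21.9% ± 1.08 (SD, n = 3). Neither was called (adjusted p = 0.965 and 0.832, edgeR's quasi-likelihood test).

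The other genes of the pathway were taken as 5 lists with 42 genes, of which 39 were in the table and 27 were tested. Of these, 6 were higher and 3 were lower in 4HC, or 33.3% called in either direction against 36.4% of all tested genes, and the median of their log2 fold changes was 0.04. By direction, 19.2% of all tested genes were higher and 17.1% were lower. These shares stand beside the counts of each list below, which rest on 2 to 10 tested genes and are too few to compare.

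Around the receptors, INSR, the insulin receptor, whose A isoform also binds IGF2, was at 5.59 ± 0.312 TPM in control, above the 0.273 TPM of IGF1R. INSR was at 32.1, 31.5 and 34.5 CPM in control and 41.1, 36.2 and 34.2 in 4HC. It was called higher with a log2 fold change of 0.18 (adjusted p = 0.0162, edgeR's quasi-likelihood test), but 4HC 3 lay inside the control range. It was called under 8 of 15 alternatives. The call was lost without control 1, without control 2 or without 4HC 1 (adjusted p = 0.0575, 0.0732 and 0.252, with a log2 fold change of 0.10 in the last), in DESeq2 (0.107) and in limma on log2(TPM + 1), log2(TPM + 0.1) and log2(FPKM + 1) (0.182, 0.188 and 0.119). It was 1 of 2 tested genes in the list of insulin, its receptors and further IGF carriers, and the other, IGFBPL1, was not called.

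Of the proteases that cleave IGFBPs and their inhibitors, 1 of 3 tested genes was higher and 0 were lower. CTSD, cathepsin D, a lysosomal protease carried by mannose 6-phosphate receptors, was at 119.4 CPM in control and 136.2 CPM in 4HC, and it rose by a log2 fold change of 0.19 (adjusted p = 0.000345, edgeR's quasi-likelihood test). PAPPA, the protease of IGFBP4, had a log2 fold change of 0.47 that missed the threshold (unadjusted p = 0.0383, adjusted p = 0.0909), at 1.69 CPM in control and 2.34 CPM in 4HC. PAPPA was named after its values were seen, because it acts on IGFBP4.

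Of the adaptors and negative regulators of the receptors, 1 of 10 tested genes was higher and 2 were lower. SHC1, an adaptor that links the receptors to RAS signalling, averaged 491.9 CPM in control against 554.8 CPM in 4HC, a log2 fold change of 0.17 (adjusted p = 1.93e-05, edgeR's quasi-likelihood test). GRB2, the partner of SHC1 in that link, averaged 152.0 CPM in control against 141.8 CPM in 4HC, a log2 fold change of -0.10 (adjusted p = 0.0380). PTPN11, the phosphatase SHP2, had a log2 fold change of -0.09 (adjusted p = 0.0371) and was named after its values were seen. The calls of GRB2 and PTPN11 were lost together without control 3 or without 4HC 3, which left 1 lower gene over all lists, and also under library size scaling alone. GRB2 was called under 5 and PTPN11 under 6 of 15 alternatives, and the log2 fold change of GRB2 was -0.06 without control 2 (adjusted p = 0.245). IRS1 and IRS2, the docking proteins of the receptors, were not called.

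Among the genes that bind IGF2 mRNA or regulate its transcription, 1 of 6 tested genes was higher and 1 was lower. LIN28B, an RNA-binding protein that blocks let-7 and binds IGF2 mRNA, was at 352.5, 319.4 and 352.5 CPM in control and 229.3, 237.2 and 249.9 CPM in 4HC. All 4HC samples lay below all control samples, and LIN28B fell by 0.52 on the log2 scale (SE 0.0369, adjusted p = 7.08e-17, edgeR's quasi-likelihood test). PLAGL1, a zinc finger factor that activates the imprinted IGF2 locus, was at 0.736 CPM in control and 1.43 CPM in 4HC with a log2 fold change of 0.95 (adjusted p = 0.0104), lay under the level required for naming and was named after its values were seen. The call of PLAGL1 was lost without control 3 (adjusted p = 0.0899), without 4HC 2 (0.0540) and in DESeq2 (0.0976). IGF2BP1, IGF2BP2 and IGF2BP3, the IGF2 mRNA-binding proteins, were not called, with log2 fold changes of -0.21, 0.08 and -0.15.

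In the mannose 6-phosphate pathway, to which IGF2R belongs, and among other receptors of IGFBPs, 2 of 6 tested genes were higher and 0 were lower. LRP1, an endocytic receptor that also binds IGFBP3, averaged 145.6 CPM in control against 183.8 CPM in 4HC, a log2 fold change of 0.34 (adjusted p = 1.07e-09, edgeR's quasi-likelihood test). GNPTG, a subunit of the enzyme that adds the mannose 6-phosphate tag, averaged 24.9 CPM in control against 29.7 CPM in 4HC, a log2 fold change of 0.25 (adjusted p = 0.00255), and its adjusted p was 0.0524 without control 3. M6PR, the smaller mannose 6-phosphate receptor, was not called, with a log2 fold change of 0.06.

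**Figure D4:**
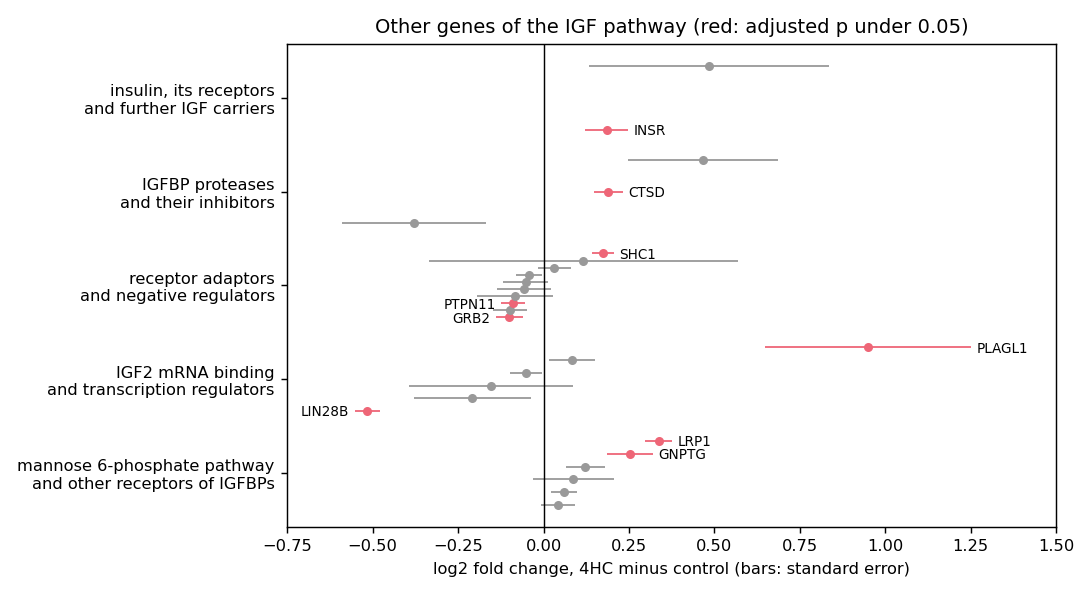
Log2 fold change in 4HC relative to control of the 27 tested pathway genes outside the 10, by list, with bars for the standard error. Genes with an adjusted p under 0.05 are red and named, with 6 to the right of 0 and LIN28B, GRB2 and PTPN11 to the left.

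By the correlation of log2(CPM + 1) over the 6 samples, the tested genes most like IGF2 were UQCRC1, a subunit of respiratory complex III, with r = 0.9997, FBXW7, the substrate receptor of a ubiquitin ligase, with r = 0.9986, and ZGRF1, a helicase, with r = 0.9982. All samples share the contrast of 4HC with control, and 685 tested genes had r above 0.95, so these values are a description of samples that fall into the same 2 groups. FBXW7 averaged 24.9 CPM in control against 39.6 CPM in 4HC, UQCRC1 at 269.5 and 296.3 CPM, and ZGRF1 at 17.8 and 27.4 CPM.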

How the data were processed

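Bulk RNA-seq of 3 control and 3 4HC samples of COV434 was used, with groups taken from the sample labels. The authors filtered reads with SOAPnuke. The submitters' processing notes name HISAT2, Bowtie2, RSEM 1.3.1, DESeq2 1.4.5 and GRCh38.p13, without their roles. Expected counts per gene and per transcript were deposited without normalization, and 85.5% of those of genes were whole numbers. TPM and FPKM values were deposited by the authors, scaled to length and library. The authors' own fold changes, p-values and q-values, and a second gene table with the same values, were not used.

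Expected counts were rounded and tested over all genes, or all transcripts, with edgeR 4.0.16 in R 4.3.3 (TMM, filterByExpr, quasi-likelihood test, condition as the only term) with Benjamini-Hochberg adjustment at 0.05. CPM values were scaled by the same TMM factors. The test was checked on simulated data. Alternatives used DESeq2 1.42.0 and limma 3.58.1. Promoters came from RefSeq and transcript models from GENCODE.

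The members, lists and tests were chosen with earlier results of these data known. All 10 members were named, along with up to 2 genes per pathway list with the largest change past the threshold and at least 5 CPM, and the 3 genes most correlated with IGF2. Some further genes of the lists were named outside this rule.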

Additional observations from a re-analysis of the deposited data

How the results depend on the processing

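IGF2 was called higher under all 15 alternatives, with log2 fold changes of 0.48 to 0.80 and adjusted p-values from 1.71e-07 to 0.000799. The lowest log2 fold changes, 0.48 and 0.54, came from limma on log2(FPKM + 1) and log2(TPM + 1), which are unlike measures. The other alternatives gave 0.70 to 0.80. The number of members called higher was 1 and became 3 with library size scaling alone (IGF2, IGFBP4 and IGF2R), 2 without a filter, 2 with at least 10 counts in every sample, and 1 to 2 when a replicate was left out. IGFBP4 was called under 6 of the 15 alternatives, with log2 fold changes of 0.27 to 0.78 and adjusted p-values of 0.00551 to 0.343, and IGF2R under 1, with 0.0342 to 0.359. The number of pathway genes lower in 4HC was 3 and became 1 with library size scaling alone, 1 with a replicate block, 1 with limma on log2(TPM + 1), 1 on log2(TPM + 0.1) and 1 on log2(FPKM + 1), and 1 to 3 when a replicate was left out. The numbers of lower members, of 2-fold members and of called member transcripts were 0 in each alternative run. IGFBP3, IGFBP5, IGFBP6 and IGFBP7, never called, changed sign under at least 1 alternative each. IGF1 and IGFBP6 could not be fitted under the minimum of 10 counts.

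Same-numbered samples did not visibly deviate together (correlations of 0.0087, 0.0694 and 0.0302), and not every sample correlated best with its own number. These values do not exclude that same-numbered samples were handled together. With the replicate block, 1 member was higher, and 1 pathway gene in place of 3 was lower.

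Depth limits the low genes. Of the 10 members, 7 had under 100 counts on average in control, and a count of 0 allows up to 3 counts, or 0.186 CPM in the shallowest library. Intervals of IGF1, IGF1R, IGFBP3, IGFBP4, IGFBP5 and IGFBP6 are therefore wide. IGF2, the called gene, is also among these 7, with an interval of 0.50 to 1.01 on the log2 scale. Outlying samples were not sought, since each group held 3, and an exact permutation test of 3 against 3 cannot give a p below 0.1.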
